A study of Homo sapiens with 12 samples.

Results

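The aldehyde dehydrogenase (ALDH) family was examined in HEL cells, an established human erythroleukemia line used as a model of acute myeloid leukemia (AML). The set held 10 listed genes, each found by its symbol among the 26481 genes of the count table: ALDH1A1, ALDH1A2, ALDH1B1, ALDH2, ALDH3A2, ALDH4A1, ALDH6A1, ALDH7A1, ALDH9A1 and ALDH18A1. All 10 passed the filter on low counts, as did 14164 genes in total. A further 9 genes of the family served as a comparison, of which 5 passed.

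RNA was sequenced from barcoded HEL cultures in 4 groups, all of them, NT included, read at about day 30. NT cells (n = 2) received only the DMSO solvent, Doxo relapses (n = 3) had been exposed to 1.8 µM doxorubicin, Doxo+Cyta relapses (n = 3) to doxorubicin with 6 µM cytarabine, and Doxo+Cyta+DAC relapses (n = 4) to both of these with 0.1 µM decitabine (DAC), an inhibitor of DNA methylation. Exposure lasted 72 h or slightly longer, dead cells were removed on Ficoll, and the survivors were grown for about 30 days until they again numbered those seeded. Each relapse library is therefore a regrown population read at 1 time, and a change in which cells make up a culture cannot be told apart from a change in RNA per cell.

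Most aldehyde dehydrogenases oxidise aldehydes to carboxylic acids with NAD or NADP as the acceptor of electrons. The family divides by substrate. ALDH1A1 and ALDH1A2 make retinoic acid, ALDH1B1 and ALDH2 clear acetaldehyde in mitochondria, ALDH3A2 oxidises fatty aldehydes at the endoplasmic reticulum, and the remaining members serve amino acid, choline and carnitine metabolism. ALDH activity, measured with a fluorescent substrate, is widely used to sort stem-like cells of blood and leukemia. The libraries measured RNA and not enzyme activity.

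Total counts lay between 12763582 and 19106235 per library. All 10 markers of the HEL line were present, with ITGA2B between 857 and 1710 CPM (reads of a gene relative to the TMM-scaled total of its library). Among 14 markers of T cells, B cells, epithelium and fibroblasts, CD2 (19.9 to 55.7 CPM) and CD79A (0.894 to 6.00 CPM) were the only ones above 1.27 CPM in any library, and MS4A1 and LUM were at 0 throughout. The summed level of the HEL markers was 6290 to 8500 CPM in Doxo+Cyta+DAC, 8090 to 9330 in NT, 9340 to 10200 in Doxo and 9940 to 10800 in Doxo+Cyta, and 7 of the 10 were higher in Doxo+Cyta than in Doxo+Cyta+DAC. The summed other-cell markers were 21.9 to 46.4 CPM in Doxo+Cyta+DAC, 31.2 to 33.7 in NT, 51.2 to 61.0 in Doxo and 40.9 to 60.2 in Doxo+Cyta. The part of these shifts in the ALDH values was not tested. Doxo+Cyta replicate 20 stood apart, with a median deviation from the mean of all libraries of 0.42 for the most GC-rich genes and -0.35 for the most GC-poor on the log2 scale. Doxo replicate 4 also differed from its group, with 0.13 and -0.10 where replicates 5 and 6 had -0.14 and 0.16, and -0.12 and 0.19. The chi-square per degree of freedom of its counts was 28.1 and 25.7 against these replicates, which had 2.97 between them.

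The family was dominated by ALDH1A1 in all 4 groups, and the relapses that had received decitabine differed from the other 3 groups in members of several classes. ALDH6A1 was lower in Doxo+Cyta+DAC than in each other group, ALDH9A1 and ALDH3A2 were higher than in each other group, and ALDH1B1 was higher than in Doxo and Doxo+Cyta. ALDH2, close to the limit of detection, was also lower there, but it passed the filter only through libraries of the other groups. ALDH7A1 was the member that differed between Doxo and NT. ALDH1A1 and ALDH18A1, the most abundant members, passed the test in none of the 6 comparisons.

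Levels between genes were compared as CPM per kilobase of exon. The aligner could not place reads across splice junctions, so these levels also depend on the exon structure of each gene. NT libraries averaged 127 ± 5.65 CPM per kb of ALDH1A1 (SD, n = 2), Doxo libraries 143 ± 24.2 (n = 3), Doxo+Cyta libraries 158 ± 13.5 (n = 3) and Doxo+Cyta+DAC libraries 176 ± 46.0 (n = 4). It made up 57.4% to 68.5% of the summed level of the 10 members in single libraries. ALDH18A1, ALDH9A1 and ALDH4A1 came next, in this order and without overlap of their libraries, in all 4 groups. ALDH1B1 stood above ALDH6A1 in NT (6.36 against 4.97 CPM per kb), and the pair overlapped in Doxo and in Doxo+Cyta. In Doxo+Cyta+DAC the pair was far apart, with ALDH1B1 at 8.75 and ALDH6A1 at 1.14 CPM per kb, and ALDH6A1 ranked below ALDH3A2 (3.04). ALDH2 had the lowest mean in every group, with 0.220 CPM per kb in NT and 0.0392 in Doxo+Cyta+DAC, and its libraries overlapped those of the next gene in each group except Doxo+Cyta+DAC.

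**Figure D1:**
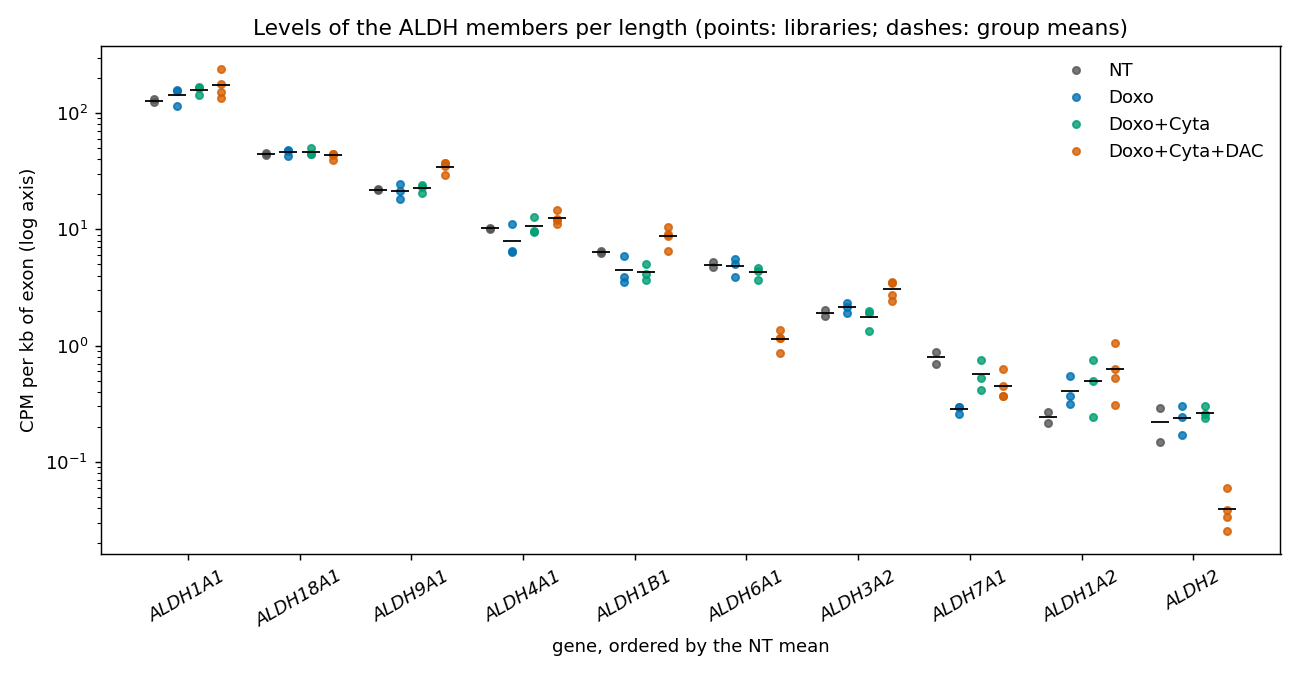
Levels of the 10 members in CPM per kb of exon on a log axis, with genes ordered by their NT mean. Points are libraries coloured by group and dashes are group means. ALDH1A1 lies between 115 and 239 CPM per kb, and ALDH6A1 and ALDH2 are the genes whose Doxo+Cyta+DAC points lie well below the other groups.

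Between Doxo+Cyta+DAC and NT, 6 members passed an adjusted p of 0.05, 3 of them higher and 3 lower, where 24.9% of all tested genes were called higher and 23.7% lower. Between Doxo and Doxo+Cyta+DAC, 7 members passed, 2 higher and 5 lower in Doxo, against 30.4% and 29.1% of all tested genes. Between Doxo+Cyta and Doxo+Cyta+DAC, 5 members passed, 2 higher and 3 lower in Doxo+Cyta, against 30.5% and 29.8%. Large shares of all genes thus differed between these groups, and those of the members lay near them. By a stricter rule, an adjusted p below 0.01 with more than a 2-fold difference, the counts were 2, 2 and 3 members, against 16.2%, 21.6% and 23.3% of all genes. ALDH2, which passed the filter only through the other groups, is counted in each of these comparisons.

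Outside the decitabine group few members differed. Doxo against NT gave 1 member, lower in Doxo, where 6.06% of genes were called higher and 4.63% lower. Doxo+Cyta against NT gave 0 members in edgeR and 0 in DESeq2, with 1 member at an unadjusted p under 0.05 and a smallest adjusted p of 0.179, where 0.911% of genes were called higher and 0.551% lower. Doxo against Doxo+Cyta also gave 0 in both tools, with 1 member at an unadjusted p under 0.05 and a smallest adjusted p of 0.0828, where 2.32% were called higher and 1.07% lower. The median log2 fold change of the members was 0.37 in Doxo+Cyta+DAC over NT, -0.57 in Doxo over Doxo+Cyta+DAC and -0.20 in Doxo+Cyta over Doxo+Cyta+DAC, beside medians of 0.02, 0.01 and 0 over all tested genes.

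**Figure D2:**
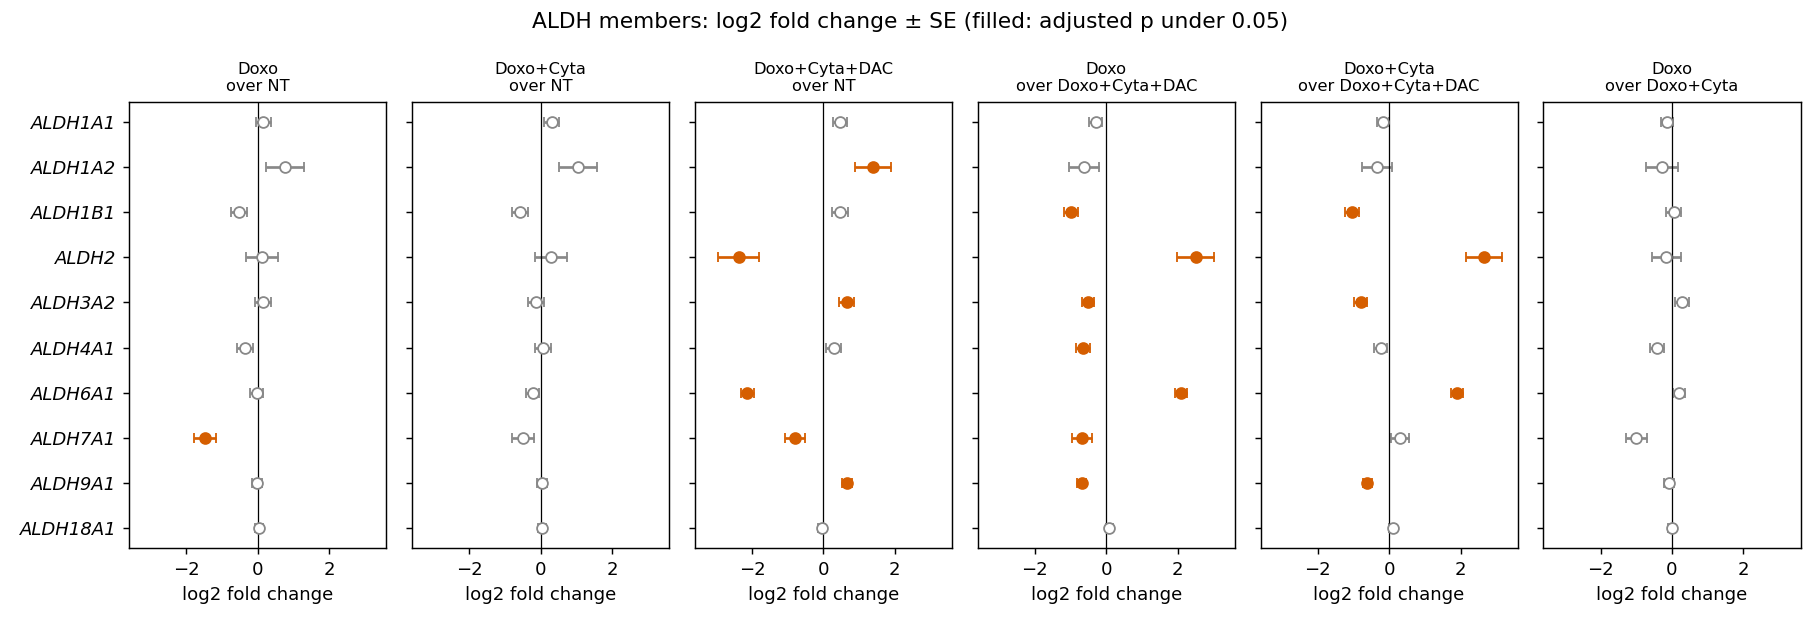
Log2 fold changes of the 10 members with their standard errors in the 6 comparisons, filled where the adjusted p is under 0.05. The filled points of ALDH6A1 and ALDH2 lie beyond 1.9 in either direction in the comparisons with Doxo+Cyta+DAC, and Doxo+Cyta over NT and Doxo over Doxo+Cyta have no filled point.

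Because decitabine acts on the methylation of cytosines followed by guanine (CG), the start regions of the members were compared in their CG content. The windows reach from 250 bases before to 50 bases after the start site in RefSeq (GRCh38.p14) and were found for 9 members, the exception being ALDH2. These start sites lay from 38 bases (ALDH1B1) to 615 bases (ALDH3A2) away from those of the counted genes, with 264 for ALDH1A1. The ALDH1A1 window lies wholly inside the counted gene, and the ALDH3A2 window lies wholly before it. ALDH1A1 had 7 CG, ALDH3A2 12, ALDH6A1 15, ALDH7A1 17, ALDH4A1 25, ALDH9A1 26, ALDH1B1 27, ALDH18A1 31 and ALDH1A2 41, beside a median of 14 over 35116 promoters. Shown with every CG in capitals are ALDH6A1, lower in Doxo+Cyta+DAC than in each other group, ALDH9A1, higher than in each other group, ALDH1B1, higher than in Doxo and Doxo+Cyta but not called against NT, and ALDH1A1, called in no comparison. Methylation itself was not measured in these libraries.
ALDH6A1: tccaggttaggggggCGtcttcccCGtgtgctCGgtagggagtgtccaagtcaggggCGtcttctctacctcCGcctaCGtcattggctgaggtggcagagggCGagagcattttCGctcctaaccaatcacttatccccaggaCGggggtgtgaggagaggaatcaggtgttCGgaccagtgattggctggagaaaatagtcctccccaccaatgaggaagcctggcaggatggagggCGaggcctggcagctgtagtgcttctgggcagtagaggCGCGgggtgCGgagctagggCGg
ALDH9A1: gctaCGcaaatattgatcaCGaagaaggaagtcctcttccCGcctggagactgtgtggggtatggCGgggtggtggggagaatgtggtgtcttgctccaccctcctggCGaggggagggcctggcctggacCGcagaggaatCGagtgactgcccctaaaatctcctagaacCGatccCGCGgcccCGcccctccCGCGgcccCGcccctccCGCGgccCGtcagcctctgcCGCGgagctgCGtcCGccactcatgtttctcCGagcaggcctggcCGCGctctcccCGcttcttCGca
ALDH1B1: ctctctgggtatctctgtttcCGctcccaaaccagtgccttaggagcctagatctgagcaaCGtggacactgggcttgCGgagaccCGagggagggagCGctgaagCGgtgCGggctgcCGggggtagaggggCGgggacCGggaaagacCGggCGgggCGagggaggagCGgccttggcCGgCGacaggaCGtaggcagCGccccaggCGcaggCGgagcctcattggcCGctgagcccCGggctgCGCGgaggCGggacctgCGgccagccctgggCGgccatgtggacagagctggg
ALDH1A1: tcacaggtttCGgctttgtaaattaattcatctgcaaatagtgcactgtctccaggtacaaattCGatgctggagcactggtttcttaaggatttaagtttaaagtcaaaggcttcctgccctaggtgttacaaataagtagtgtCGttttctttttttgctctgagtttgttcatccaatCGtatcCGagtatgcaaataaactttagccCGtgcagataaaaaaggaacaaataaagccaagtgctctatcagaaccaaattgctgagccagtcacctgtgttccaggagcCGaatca
These windows are chr14:74084404-74084703 for ALDH6A1, chr1:165698513-165698812 for ALDH9A1 and chr9:72953004-72953303 for ALDH1A1, all on the minus strand, and chr9:38392452-38392751 on the plus strand for ALDH1B1. The ALDH6A1 window held 4 matches to CCAAT on either strand, a number that 0.99% of all promoters reached (34.6% had at least 1). That share was computed for the count seen in this window, the highest of the 9, and is a description only. ALDH1B1 and ALDH1A1 had 1 match each, and ALDH9A1 had none. The letters GGGCGG, searched on both strands and containing a CG, matched 3 times in ALDH1B1, 2 times in ALDH9A1 and once in ALDH6A1, and 45.0% of all promoters had a match. TATAAA and CACGTG were also searched and had no match in the windows shown.

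ALDH1A1 (chr9:72900662-72953317) is the cytosolic enzyme that turns retinal into retinoic acid and carries much of the activity used to sort stem-like cells. Its level was 311 and 292 CPM in NT and 272, 367 and 374 CPM in Doxo. In Doxo+Cyta it was 389, 336 and 394 CPM, and in Doxo+Cyta+DAC it spread from 317 and 359 to 424 and 566 CPM. All Doxo+Cyta and Doxo+Cyta+DAC libraries lay above both NT libraries, yet neither group passed against NT. Doxo+Cyta stood at a log2 fold change of 0.31 (SE 0.20, adjusted p = 0.423), and Doxo+Cyta+DAC stood at 0.47 (SE 0.20, adjusted p = 0.064), whose 95% interval reached from 0.04 to 0.89. Without Doxo+Cyta+DAC replicate 31, its lowest library, ALDH1A1 passed the test against NT (0.58, adjusted p = 0.0214) and against Doxo (-0.41 for Doxo over Doxo+Cyta+DAC, adjusted p = 0.0446). This was the only alternative with a call, 1 of 13 against NT and 1 of 15 against Doxo. Over all alternatives the value over NT lay between 0.28 and 0.58. For Doxo over Doxo+Cyta+DAC it lay between -0.41 and -0.12, with an adjusted p of up to 0.489.

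ALDH1A2 (chr15:57953424-58065923), the retinal dehydrogenase best known from embryonic development, was measured by 14 to 66 counts per library. It had 0.823 and 1.01 CPM in NT, 2.09, 1.40 and 1.20 in Doxo, 2.84, 0.934 and 1.89 in Doxo+Cyta, and 4.04, 1.17, 1.99 and 2.38 in Doxo+Cyta+DAC. The relapse libraries were uneven within each group, and replicate 20 of Doxo+Cyta was the only one that fell within the NT range. Only Doxo+Cyta+DAC over NT passed, at a log2 fold change of 1.39 (SE 0.51, adjusted p = 0.0361). This call was lost without NT replicate 1 (1.24, adjusted p = 0.196), NT replicate 2 (1.53, 0.113), Doxo+Cyta+DAC replicate 30 (1.01, 0.102) or Doxo+Cyta+DAC replicate 33 (1.39, 0.054).

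ALDH1B1 (chr9:38392664-38398665) is a mitochondrial enzyme that acts on acetaldehyde and retinal. It had 20.0 and 19.1 CPM in NT, 18.01, 10.8 and 12.1 in Doxo, 11.3, 15.3 and 12.7 in Doxo+Cyta, and 26.9, 20.1, 32.3 and 28.2 in Doxo+Cyta+DAC. Every Doxo and Doxo+Cyta library lay below NT and every Doxo+Cyta+DAC library above it. The log2 fold change was -0.99 for Doxo over Doxo+Cyta+DAC (SE 0.20, adjusted p = 0.00072) and -1.04 for Doxo+Cyta over Doxo+Cyta+DAC (SE 0.20, adjusted p = 0.000454), and both calls held in all 15 alternatives. Against NT no group passed, with -0.53 for Doxo (adjusted p = 0.151), -0.58 for Doxo+Cyta (0.179) and 0.46 for Doxo+Cyta+DAC (0.0983). The Doxo value passed without Doxo replicate 4 (-0.81, adjusted p = 0.0189), and the Doxo+Cyta+DAC value passed without replicate 31 (0.58, 0.0364). Without both Doxo replicate 4 and Doxo+Cyta replicate 20, an alternative chosen after the data were seen, Doxo+Cyta also passed (-0.73, 0.0218).

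ALDH2 (chr12:111766887-111809985), the main mitochondrial enzyme for acetaldehyde after alcohol intake, was close to the limit of detection in these cells. It had 6 and 10 counts in NT, 9, 6 and 8 in Doxo, 10, 8 and 8 in Doxo+Cyta, and 2, 1, 1 and 1 in Doxo+Cyta+DAC. The Doxo+Cyta+DAC libraries were all below the lowest library of the other groups. From the summed counts, scaled by library size, the level was 5.52 times as high in NT as in Doxo+Cyta+DAC (95% interval 1.93 to 19.3, counting error only), 6.08 times in Doxo (2.26 to 20.5) and 6.84 times in Doxo+Cyta (2.59 to 22.8). The adjusted p was 0.00353 against NT, 0.000938 against Doxo and 0.000466 against Doxo+Cyta. ALDH2 passed the filter on low counts only through libraries outside Doxo+Cyta+DAC. Its low level there was thus favoured by this selection, and these adjusted p-values are given as description only. Without NT replicate 2 the call against NT was lost (log2 fold change -1.85, adjusted p = 0.0759), and the filter of at least 10 counts in every library removed the gene.

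ALDH3A2 (chr17:19648751-19677595) encodes the membrane-bound fatty aldehyde dehydrogenase, whose loss causes Sjögren-Larsson syndrome. It had 6.89 and 7.80 CPM in NT, 8.87, 7.33 and 8.27 in Doxo, 5.13, 7.61 and 7.33 in Doxo+Cyta, and 13.2, 9.35, 10.4 and 13.6 in Doxo+Cyta+DAC. All 4 Doxo+Cyta+DAC libraries were above all 8 others. The log2 fold change was 0.66 over NT (SE 0.21, adjusted p = 0.0172), and it was -0.51 for Doxo over Doxo+Cyta+DAC (SE 0.18, 0.0253) and -0.80 for Doxo+Cyta over Doxo+Cyta+DAC (SE 0.18, 0.00195). The call against NT was lost without NT replicate 1 (0.57, adjusted p = 0.147) or 2 (0.75, 0.0625). The call against Doxo was lost without Doxo replicate 5 (-0.44, 0.101) or 6 (-0.52, 0.0617) and without Doxo+Cyta+DAC replicate 30 (-0.45, 0.0693) or 33 (-0.43, 0.0695).

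**Figure D3:**
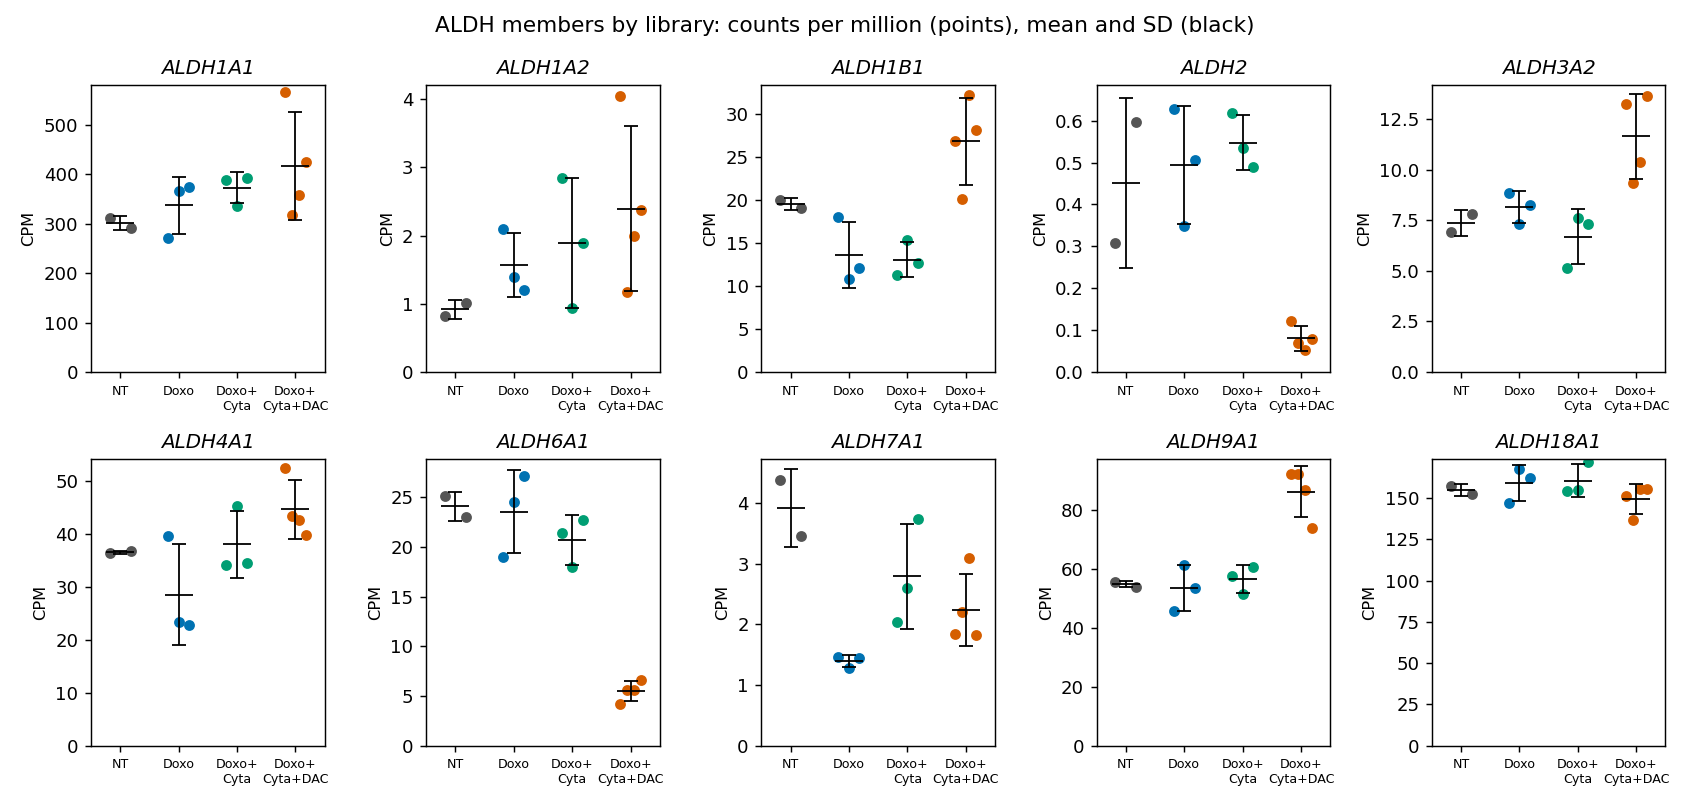
Level of each member in CPM in the 12 libraries, each panel with its own axis from 0. Points are libraries by group, and black marks are the mean and SD. ALDH6A1 and ALDH2 are low in all 4 Doxo+Cyta+DAC libraries, while ALDH9A1 and ALDH3A2 are high in all 4, and ALDH7A1 is lowest in Doxo.

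ALDH6A1 (chr14:74057665-74084493) is the methylmalonate semialdehyde dehydrogenase of mitochondria, a late step in the breakdown of valine and thymine. Its level was 25.2 and 23.1 CPM in NT, 19.0, 24.6 and 27.1 in Doxo, and 21.5, 17.95 and 22.7 in Doxo+Cyta. In Doxo+Cyta+DAC it was 4.23, 5.64, 5.62 and 6.65 CPM. The lowest library of the other groups thus held 17.95 CPM and the highest of Doxo+Cyta+DAC 6.65 CPM. The log2 fold change was -2.13 over NT (SE 0.18, adjusted p = 2.06e-06), a level of 0.229 times NT, and it was 2.10 for Doxo over Doxo+Cyta+DAC (SE 0.17, adjusted p = 5.43e-07) and 1.91 for Doxo+Cyta over Doxo+Cyta+DAC (SE 0.17, adjusted p = 6.84e-07). These 3 calls held in every alternative, the log2 fold change over NT ranging from -2.22 to -2.02.

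Its exons share 279 bases (5.76% of its exon length) with CCDC176. The counting used no strand and left out fragments that overlap both genes. CCDC176 had between 1 and 10 counts per library and was not tested. On the other side of the ALDH6A1 start, 460 bases away and on the opposite strand, begins LIN52, a subunit of a complex that regulates cell cycle genes, which was looked at for its position and not by the rule for named genes. LIN52 had 9.11 and 7.45 CPM in NT, 5.38, 5.18 and 5.24 in Doxo, 4.76, 4.87 and 5.81 in Doxo+Cyta, and 9.31, 11.97, 11.3 and 10.9 in Doxo+Cyta+DAC. Both genes were high in NT, while LIN52 was low in Doxo and Doxo+Cyta and ALDH6A1 was low in Doxo+Cyta+DAC. For LIN52 the log2 fold change was -1.04 for Doxo over Doxo+Cyta+DAC (SE 0.15, adjusted p = 6e-05) and -1.08 for Doxo+Cyta over Doxo+Cyta+DAC (SE 0.15, adjusted p = 4.14e-05). Doxo+Cyta+DAC over NT was 0.39 for LIN52 (adjusted p = 0.0687, and 0.0455 without Doxo+Cyta+DAC replicate 30), beside -2.13 for ALDH6A1. Doxo over NT was -0.65 for LIN52 (adjusted p = 0.0329), beside -0.03 for ALDH6A1 (0.933). That LIN52 call was lost without NT replicate 1 (0.297) or 2 (0.105) or Doxo replicate 5 (0.101) or 6 (0.0944).

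**Figure D4:**
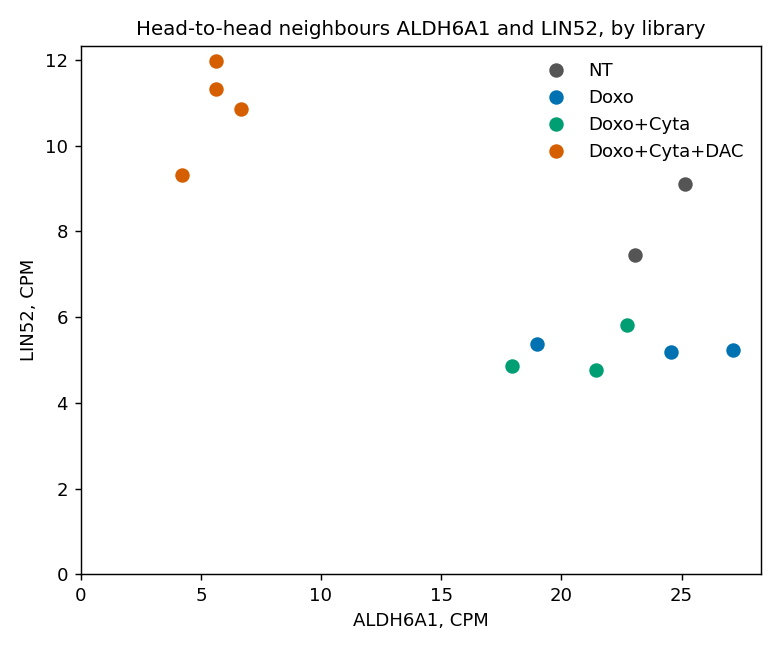
ALDH6A1 against LIN52 in CPM, with 1 point per library coloured by group. The 4 Doxo+Cyta+DAC libraries lie at 4.23 to 6.65 CPM of ALDH6A1 and 9.31 to 11.97 CPM of LIN52, apart from the Doxo and Doxo+Cyta libraries, which have 17.95 to 27.1 CPM of ALDH6A1 and 4.76 to 5.81 CPM of LIN52. The NT libraries are high in both, with 25.2 and 23.1 CPM of ALDH6A1 and 9.11 and 7.45 CPM of LIN52.

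ALDH4A1 (chr1:18871430-18902799) finishes the breakdown of proline to glutamate in mitochondria. It had 36.4 and 36.8 CPM in NT, 39.6, 23.4 and 22.9 in Doxo, 34.3, 45.3 and 34.7 in Doxo+Cyta, and 52.6, 43.5, 42.7 and 39.9 in Doxo+Cyta+DAC. Doxo replicate 4 and Doxo+Cyta replicate 20 were the highest libraries of their groups, and the transcript of ALDH4A1 had the highest GC content of the members (60.7%). Doxo over Doxo+Cyta+DAC gave a log2 fold change of -0.65 (SE 0.19, adjusted p = 0.0082). This call was lost without Doxo replicate 5 (-0.52, adjusted p = 0.051) or 6 (-0.51, 0.0518). Without Doxo replicate 4, ALDH4A1 was also lower in Doxo than in NT (-0.69, 0.0128) and than in Doxo+Cyta (-0.73, 0.0195). With an offset for GC content, an alternative chosen after the data were seen, Doxo+Cyta over Doxo+Cyta+DAC changed from -0.23 (adjusted p = 0.286) to -0.43 (0.0133), and without both Doxo replicate 4 and Doxo+Cyta replicate 20 it was -0.37 (0.00734).

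ALDH18A1 (chr10:95605929-95656810) works in the opposite sense, making the precursor of proline and ornithine from glutamate. It had 157 and 152 CPM in NT, 147 to 168 in Doxo, 155 to 172 in Doxo+Cyta and 136 to 156 in Doxo+Cyta+DAC, and the ranges of all groups overlapped. Its log2 fold changes lay between -0.05 and 0.10 in the 6 comparisons. The interval for Doxo+Cyta+DAC over NT, from -0.27 to 0.17, did not reach the 0.66 measured for ALDH9A1.

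ALDH7A1 (chr5:126541841-126595390), or antiquitin, acts in the breakdown of lysine and on betaine aldehyde in choline metabolism, and its loss causes pyridoxine-dependent epilepsy. It had 4.37 and 3.46 CPM in NT, 1.47, 1.28 and 1.45 in Doxo, 2.04, 2.60 and 3.73 in Doxo+Cyta, and 1.84, 2.201, 3.10 and 1.82 in Doxo+Cyta+DAC. The 3 Doxo libraries were close together and below all 9 others. Doxo over NT gave a log2 fold change of -1.48 (SE 0.31, adjusted p = 0.0109). Smaller values of -0.79 for Doxo+Cyta+DAC over NT (SE 0.28, 0.0307) and -0.69 for Doxo over Doxo+Cyta+DAC (SE 0.28, 0.0479) also passed. Counts of 21 to 85 per library and 4 pseudogenes listed in RefSeq limit the precision of these values, since fragments that align to several places were left out.

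The Doxo call for ALDH7A1 was lost without NT replicate 1 (-1.30, adjusted p = 0.134) or 2 (-1.64, 0.0612). Its Doxo+Cyta+DAC call against NT was lost without NT replicate 1 (-0.62, 0.234) or 2 (-0.95, 0.0584) and without Doxo+Cyta+DAC replicate 30 (-0.70, 0.0733), 31 (-0.78, 0.0515) or 33 (-0.71, 0.0691). The difference between Doxo and Doxo+Cyta+DAC held in 5 of 15 alternatives. It was lost in DESeq2 (adjusted p = 0.0575), with upper quartile scaling (0.0592), with no filter (0.0568) and with an offset for GC content (0.0511). It was also lost without any single Doxo library (0.0692 without replicate 4, 0.135 without 5 and 0.0933 without 6). The same held without Doxo+Cyta+DAC replicate 31 (0.0662) or 32 (0.161), and without Doxo replicate 4 and Doxo+Cyta replicate 20 together (0.0652).

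ALDH9A1 (chr1:165662212-165698663) oxidises trimethylaminobutyraldehyde in carnitine synthesis and aminobutyraldehyde from polyamines. It had 55.6 and 54.1 CPM in NT, 45.8, 61.4 and 53.7 in Doxo, 57.8, 51.6 and 60.7 in Doxo+Cyta, and 92.3, 92.4, 87.0 and 73.9 in Doxo+Cyta+DAC. All 4 Doxo+Cyta+DAC libraries lay above the highest of the others, 61.4 CPM. Over NT the log2 fold change was 0.66 (SE 0.14, adjusted p = 0.00164), and it was -0.69 for Doxo over Doxo+Cyta+DAC (SE 0.12, 0.000268) and -0.61 for Doxo+Cyta over Doxo+Cyta+DAC (SE 0.12, 0.000657). These calls held in every alternative tried. LOC440700, which starts 87 bases away, had at most 3 counts in any library.

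The members were next compared with one another over the 12 libraries, as a description, since the libraries share their groups. The log2 CPM of ALDH2 and ALDH6A1 ran together (Pearson r = 0.89), and each ran against ALDH9A1 (r = -0.91 and -0.90). ALDH2 had 1 to 2 counts per Doxo+Cyta+DAC library and passed the filter only through the other groups. All its correlations given here therefore partly restate that selection. ALDH1B1 and ALDH3A2 both ran against ALDH6A1 (r = -0.80 each). The tested genes most like ALDH6A1 were CCDC15, BUB1 and TOM1L2 (r = 0.99 each), those most like ALDH9A1 were ENOX1 (0.972), WWP2 (0.964) and HM13 (0.961), and those most like ALDH1B1 were XYLB (0.974), MANEAL (0.972) and TRIM14 (0.972). For ALDH2 they were SFTPA2 (0.978), KCNAB2 (0.971) and SEMA6A (0.968), and for ALDH3A2 they were ZNF649 (0.939), TEX30 (0.932) and C19orf12 (0.930).

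Of the other family genes, ALDH1L1, ALDH3B1, ALDH5A1, ALDH8A1 and ALDH16A1 were tested. ALDH3B1, which oxidises lipid-derived aldehydes, had 10.7 and 8.76 CPM in NT, 13.5 to 21.7 in Doxo, 17.5 to 23.8 in Doxo+Cyta and 0.963 to 2.61 after decitabine. At -2.81, the log2 fold change of Doxo+Cyta+DAC over NT (SE 0.31, adjusted p = 1.37e-05) was farther from 0 than that of any of the 10 members, and Doxo+Cyta over Doxo+Cyta+DAC was 3.94 (SE 0.29, 1.6e-07). Doxo over NT, at 0.79 (0.097), passed without Doxo replicate 4 (0.90, 0.049). For ALDH3B1 in Doxo+Cyta over NT the value was 1.13 (0.0692, and 0.00775 in DESeq2), called in 3 of 13 alternatives. ALDH5A1, which oxidises succinate semialdehyde from the transmitter GABA, fell in Doxo (-0.55 over NT, adjusted p = 0.0235) and in Doxo+Cyta+DAC (-0.38, 0.0249), and Doxo+Cyta over NT was -0.51 (0.0766, and 0.0159 in DESeq2). The Doxo call was lost without NT replicate 1 (0.113) or 2 (0.224) or Doxo replicate 5 (0.0677) or 6 (0.0646), and the Doxo+Cyta+DAC call without NT replicate 1 (0.0528) or 2 (0.219) or Doxo+Cyta+DAC replicate 30 (0.0592). ALDH16A1 was lower in Doxo than in Doxo+Cyta+DAC (-0.82, SE 0.21, adjusted p = 0.00376), and without Doxo replicate 4 it was also lower than in NT (-0.76, 0.0293). Without Doxo+Cyta replicate 20, Doxo+Cyta over Doxo+Cyta+DAC passed too (-0.72, 0.00467, against -0.44 and 0.0778). ALDH8A1 passed in none of the 6 comparisons, with log2 fold changes between -0.21 and 0.29.

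ALDH1L1, a folate enzyme that releases carbon dioxide from formyltetrahydrofolate, was uneven among relapses. It had 10.9 and 12.3 CPM in NT, 0.349, 3.32 and 2.34 in Doxo, 14.7, 10.9 and 6.54 in Doxo+Cyta, and 0.306, 7.91, 0.0525 and 0.158 in Doxo+Cyta+DAC. Doxo+Cyta+DAC replicate 31 was thus within the Doxo+Cyta range while the other 3 libraries had 1 to 5 counts. Doxo+Cyta+DAC over NT gave -2.49 on the log2 scale (SE 0.96, adjusted p = 0.0439), and DESeq2 gave an adjusted p of 0.177. The call was also lost without either NT library (0.119 and 0.146) and without Doxo+Cyta+DAC replicate 30 (0.0987), 32 (0.0843) or 33 (0.0906). Without replicate 31 it became -6.05 (4.2e-05). Doxo+Cyta over Doxo+Cyta+DAC was 2.38 (adjusted p = 0.0325, 0.125 in DESeq2) and became 5.93 (1.37e-05) without replicate 31, while the call was lost without Doxo+Cyta replicate 19 (0.0982) or Doxo+Cyta+DAC replicate 30 (0.0807), 32 (0.0687) or 33 (0.0743). Doxo over Doxo+Cyta+DAC was -0.01 and became 3.55 (adjusted p = 0.00221) without Doxo+Cyta+DAC replicate 31.

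The pathways around the members were then described from lists of their partner genes, for Doxo+Cyta over Doxo+Cyta+DAC unless stated, the pair that differs by decitabine. A difference in this pair does not say which group departs from NT. Values over NT are therefore added for named genes not called in Doxo+Cyta+DAC over NT. In this comparison 30.5% of all tested genes were called higher and 29.8% lower. Around the retinoic acid step of ALDH1A1 and ALDH1A2, 14 of 20 listed genes were tested, 6 were higher, 3 lower and 5 uncalled in Doxo+Cyta, with a median log2 fold change of 0.20. STRA6, the cell-surface receptor for retinol-binding protein, was higher (1.35, SE 0.19, adjusted p = 3.6e-05). RDH10, which makes retinal from retinol, was lower (-1.45, SE 0.18, 1.23e-05), as was CRABP2, which carries retinoic acid to the nucleus (-1.26, SE 0.35, 0.00633). Over NT, RDH10 was -1.25 in Doxo (adjusted p = 0.00384, held in 12 of 13 alternatives) and -0.99 in Doxo+Cyta (0.0394, held in 8 of 13). In Doxo+Cyta+DAC it was 0.46 over NT (0.0631). RETSAT, a saturase of retinol, was 0.76 (SE 0.19, 0.00352), and the retinoid receptor RXRA was 0.73 (SE 0.18, 0.00267). RXRA was higher than NT with and without decitabine. It was 1.08 over NT in Doxo (0.0103, held in 11 of 13 alternatives) and 1.33 in Doxo+Cyta (0.0228, held in 9 of 13). In Doxo+Cyta+DAC it was 0.60 over NT (0.031, held in 6 of 13).

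Around the acetaldehyde enzymes ALDH1B1 and ALDH2, 7 of 13 genes of alcohol and formaldehyde metabolism were tested, 5 were higher in Doxo+Cyta and 2 uncalled, with a median of 0.87. ACSS2, which turns acetate into acetyl-CoA, was 1.29 (SE 0.12, adjusted p = 7.88e-07), and CYP2E1, which oxidises ethanol, was 1.06 (SE 0.25, 0.00224). Over NT, CYP2E1 was 0.03 in Doxo+Cyta+DAC (0.939) and 1.09 in Doxo+Cyta (0.0808). Of the 12 genes handling lipid aldehydes beside ALDH3A2, 10 were tested, 3 were higher, 2 lower and 5 uncalled. The glutathione transferase GSTP1 was higher than NT in relapses with and without decitabine, with 1.61 for Doxo+Cyta+DAC over NT (SE 0.35, adjusted p = 0.00205) and 1.5 for Doxo over NT (SE 0.36, 0.0206). Doxo+Cyta over NT was 1.20 (SE 0.36, 0.098, and 0.0186 in DESeq2). The Doxo call was lost without NT replicate 1 (0.163) or 2 (0.154) or Doxo replicate 5 (0.0536) or 6 (0.0569). Its Doxo+Cyta over Doxo+Cyta+DAC value of -0.41 (0.231) passed without Doxo+Cyta replicate 20 (-0.83, 0.0185) or Doxo+Cyta+DAC replicate 31 (-0.63, 0.0405).

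Around the proline enzymes ALDH4A1 and ALDH18A1, 7 of 9 genes were tested, 1 was higher, 3 lower and 3 uncalled. PYCRL, one of the reductases that complete proline synthesis, was -2.63 (SE 0.38, adjusted p = 4.4e-05) and thus had more RNA in Doxo+Cyta+DAC. The mitochondrial arginase ARG2 had less, with 2.46 (SE 0.16, 8.24e-08) and -2.12 for Doxo+Cyta+DAC over NT (SE 0.17, 1.59e-06).

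Around ALDH6A1, all 20 genes of valine and branched-chain breakdown were tested, 8 were higher, 6 lower and 6 uncalled in Doxo+Cyta, with a median of 0.05 beside 0 over all genes. The list as a whole therefore did not follow ALDH6A1 in one direction. BCKDHA, a subunit of the branched-chain keto acid dehydrogenase, was 1.49 (SE 0.11, adjusted p = 1.52e-07). MCEE and MUT carry methylmalonyl-CoA on to succinyl-CoA. MCEE was 1.53 (SE 0.19, 1.5e-05), MUT was 1.13 (SE 0.18, 0.00011), and AUH of leucine breakdown was 1.39 (SE 0.19, 2.56e-05). ACADSB, an acyl-CoA dehydrogenase of isoleucine breakdown, went the other way (-1.06, SE 0.15, 4.53e-05).

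Around ALDH7A1, 4 of 8 genes of lysine and choline breakdown were tested, 2 higher and 2 lower. PIPOX, a peroxisomal oxidase of pipecolate, was 3.45 (SE 0.42, adjusted p = 9.47e-06) at a mean of 0.25 CPM in Doxo+Cyta+DAC. At that mean PIPOX could not have passed the filter on low counts through Doxo+Cyta+DAC alone. Its low level there was thus favoured by this selection, as for ALDH2, and its adjusted p is given as description only. GCDH, the glutaryl-CoA dehydrogenase of lysine breakdown, was -1.15 (SE 0.19, 0.000117). Over NT, GCDH was -1.15 in Doxo (0.00664, held in 11 of 13 alternatives) and -0.79 in Doxo+Cyta (0.0767, and 0.017 in DESeq2). In Doxo+Cyta+DAC it was 0.36 over NT (0.157). Around ALDH9A1, 8 of 9 genes of carnitine and polyamine metabolism were tested, 6 were higher, 1 lower and 1 uncalled, with a median of 1.13. SAT1 and SMOX, which acetylate and oxidise polyamines, were 2.36 (SE 0.25, 2.63e-06) and 1.76 (SE 0.15, 3.98e-07). MAOA, an amine oxidase, was 1.49 (SE 0.24, 0.000105), the carnitine transporter SLC22A5 was 1.36 (SE 0.27, 0.000532), and TMLHE, the first enzyme of carnitine synthesis, was 0.89 (SE 0.21, 0.00203). Over NT, Doxo+Cyta+DAC was -0.61 for MAOA (0.0755) and -0.36 for TMLHE (0.225). Doxo over NT was 1.17 for MAOA (0.0224) and 0.96 for TMLHE (0.0275), each held in 9 of 13 alternatives. Doxo+Cyta over NT was 0.88 for MAOA (0.119) and 0.53 for TMLHE (0.247). ODC1, the first enzyme of polyamine synthesis, was -1.35 (SE 0.16, 5.92e-06) and shared with ALDH9A1 a higher level in Doxo+Cyta+DAC. MAOB was called in Doxo over Doxo+Cyta+DAC (-1.71, SE 0.62, adjusted p = 0.0293) with overlapping libraries, and the call was lost without Doxo replicate 4 (0.0958) or 6 (0.0858) or Doxo+Cyta+DAC replicate 30 (0.0935) or 31 (0.052). Over NT, MAOB was -0.14 in Doxo (0.934) and 1.57 in Doxo+Cyta+DAC (0.0745).

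**Figure D5:**
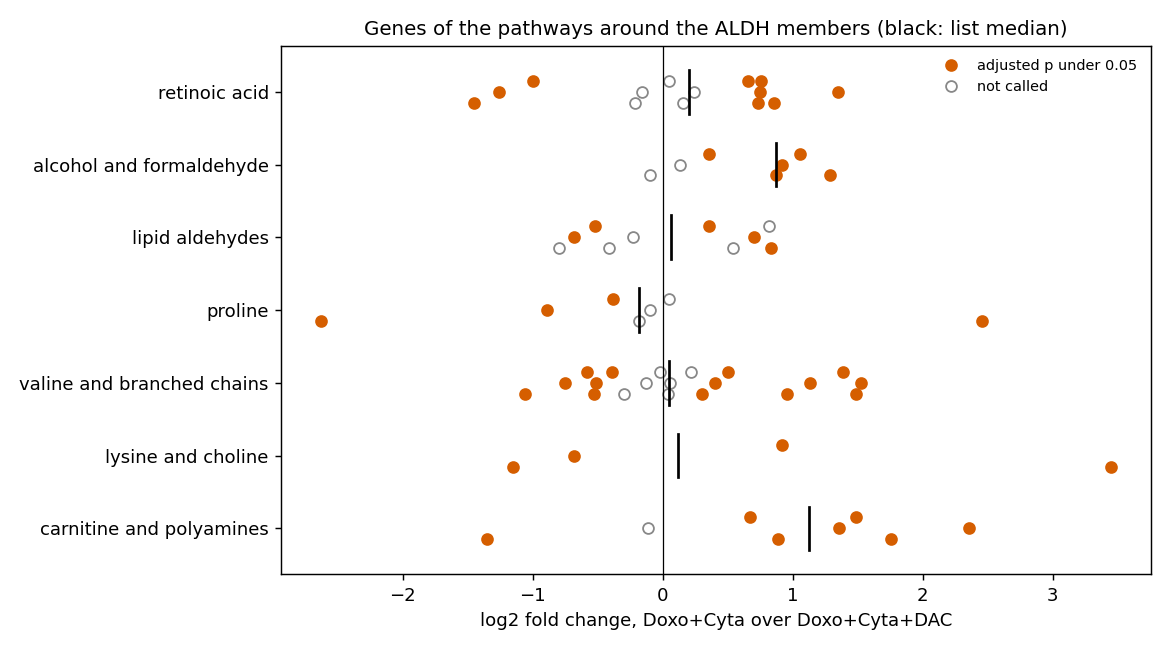
Log2 fold change of Doxo+Cyta over Doxo+Cyta+DAC for the tested genes of 7 lists of pathway partners, filled where the adjusted p is under 0.05, with the median of each list in black. The medians of the carnitine and polyamine list (1.13) and the alcohol and formaldehyde list (0.87) lie farthest from 0, and the valine list spreads to both sides.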

How the data were processed

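RNA was sequenced from 12 cultures of the HEL line as paired-end TruSeq libraries. The authors aligned the reads to GRCh38 with Bowtie2 2.2.8 (an aligner that cannot place a read across a splice junction) and deposited raw counts of fragments per gene made with featureCounts 1.6.0, without strand and without fragments aligned to several places or overlapping several genes. The deposited length column is the exon length of each gene in bases. Of 26485 genes, 4 lacked a count. The test was run in edgeR 4.0.16 under R 4.3.3 (filterByExpr, TMM scaling, 1 quasi-likelihood fit of all 12 libraries by group), with two-sided tests adjusted by the Benjamini-Hochberg method over the 14164 tested genes of each of 6 comparisons. A gene was called at an adjusted p under 0.05. CPM use the TMM-scaled totals, and log2 CPM a prior count of 2. The SE is the log2 fold change over the root of F, and intervals are 95% intervals. Code was tested on simulated data.

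Alternatives were RLE and upper quartile scaling, DESeq2 1.42.0, no filter, at least 10 counts in every library, only the groups compared, and each library left out. An offset for GC content (91.4% of tested genes had a value) and a fit without Doxo replicate 4 and Doxo+Cyta replicate 20 were chosen after the data were seen. The members and lists were chosen with earlier results of these data known. Named were all family genes, pathway genes passing the test with a fold change over 2 in any comparison (1 of them is not reported here), and the 3 genes most like each member called in both comparisons of Doxo and Doxo+Cyta with Doxo+Cyta+DAC. Labels give no batch. No 2 libraries of a group were duplicates, the chi-square per degree of freedom of a pair being at least 2.97. The labels call the replicates biological without describing the separate cultures, so p-values measure the spread between these libraries.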

Additional observations from a re-analysis of the deposited data

Results flagged for a closer look

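In the group of 4 Doxo+Cyta+DAC libraries, 1 library stood far from the other 3 for 2 of the 18 family genes whose values varied, none of them among the 10 listed members. ALDH1L1 had 7.91 CPM in replicate 31, where the others had 0.0525 to 0.306 CPM. ALDH3B1 had 2.61 CPM in replicate 33, where the others had 0.963 to 1.10 CPM. The test used flags about 1 in 20 groups by chance.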

How the results depend on the processing

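ALDH6A1, ALDH9A1 and the ALDH1B1 differences from both chemotherapy groups without decitabine kept their direction and their call in every alternative in which they were computed. Over all alternatives of the 10 members, 776 values stayed on their side of the threshold, 30 lost their call, 12 gained one and 0 called values changed sign. For the other family genes these were 372, 19, 17 and 1, the last being ALDH1L1 in Doxo over Doxo+Cyta+DAC, whose values lay between -0.59 and 3.55 with single libraries left out. For the pathway genes and LIN52 they were 2008, 58, 60 and 0. With single libraries left out, the members called numbered 0 to 3 in Doxo over NT, 2 to 7 in Doxo+Cyta+DAC over NT, 4 to 7 in Doxo over Doxo+Cyta+DAC and 0 to 1 in Doxo over Doxo+Cyta. Without Doxo replicate 4 and Doxo+Cyta replicate 20 together, 3 members were called in Doxo over NT, 1 in Doxo+Cyta over NT and 1 in Doxo over Doxo+Cyta. The cause was not tested. NT has 2 libraries, and without 1 of them the other is assumed to vary like the other groups. Members under about 5 CPM are limited by their counts, ALDH2 most of all. No paired analysis was possible because the groups share no replicate numbers.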

Other observations

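The 4 family genes that did not pass the filter were barely expressed. ALDH1A3 had 4 to 17 counts in the Doxo+Cyta+DAC libraries and 2 to 7 in the others, ALDH1L2 at most 5, ALDH3A1 at most 3 and ALDH3B2 at most 1. ALDH3A1 had no count in any Doxo+Cyta+DAC library, where 3 counts, the limit that a count of 0 allows, correspond to between 0.157 and 0.238 CPM.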
